A study of Homo sapiens with 12 samples.

Results

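KRT7, KRT8, KRT18 and KRT19, the keratins of simple epithelia, and MUC1, MUC4, MUC16 and MUC20, mucins anchored in the plasma membrane, were followed as a set of 8 genes. Every probe set that the array's annotation lists with 1 of these symbols alone was taken, and all 8 genes were present among the 18404 genes measured. KRT18 had 2 such probe sets and the others 1 each. For KRT18 the brighter of both, by its average on the 12 arrays, was used unless the other is named. Each of 12 single Affymetrix arrays measured total RNA of 1 sample of a cell line of head and neck squamous cell carcinoma. The 4 groups of 3 arrays were FaDU with shTP63, FaDU with shControl, JHU-029 with shTP63 and JHU-029 with shControl. The knockdown was aimed at p63, a p53-family transcription factor made in the basal layer of squamous epithelium. In all groups the shRNA, against TP63 or a control vector, was delivered by lentivirus and RNA was collected 72 hours after knockdown. Both lines are established, and the number of shRNA sequences used and any separate cultures behind the replicates are not given in the sources used here, so the tests see only how much these samples vary, which may be technical spread.

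Keratins are the intermediate filaments of epithelial cells and assemble from pairs of a type II and a type I chain. KRT8 and KRT18 are the main pair of single-layered epithelia, where KRT7 (type II) and KRT19 (type I) are often made as well, while basal cells of stratified epithelia build their filaments mainly from KRT5 and KRT14. Membrane mucins are large O-glycosylated proteins of the apical surface that form part of the glycocalyx and, through short cytoplasmic tails or extracellular domains, take part in receptor signalling.

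The deposited values are intensities on a linear scale, summarised per probe set by RMA, and were put on a log2 scale. All levels and differences below are log2 intensities unless a fold is named. Array medians lay between 6.46 and 6.57, and arrays of 1 group correlated at 0.993 to 0.997 across probe sets. The number of arrays limits the precision, and no detection call comes with the values, so the array median serves as a mark of dim signal. All 11 measured squamous epithelium markers were above the array median on all 12 arrays, so markers of the labelled squamous origin were present in both lines. PTPRC, a pan-leukocyte marker, had group means of 3.37 to 3.55, DCN, a fibroblast proteoglycan, of 3.15 to 3.31, and PECAM1, an endothelial adhesion protein, of 4.16 to 4.49, all below that median. Other markers of those cell types were above it: 3 to 4 of 13 immune, 2 to 3 of 12 fibroblast and 2 to 3 of 10 endothelial markers, depending on the array. The brighter ones included CD68 (group means of 10.75 to 10.96), FBLN1 (8.76 to 9.91), CDH5 and ENG in FaDU (8.69 to 9.69 and 9.37 to 9.59) and FAP in JHU-029 (7.996 to 8.38), named after their values were seen.

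Under the control vector, simple epithelial keratins were much higher in FaDU than in JHU-029, and basal keratins lower. KRT19 was 43.9-fold and KRT8 31.7-fold higher in FaDU, whereas KRT18 was 2.70-fold and KRT7 2.28-fold higher. Of the mucins, MUC20, MUC1 and MUC4 were 1.87-fold, 1.38-fold and 1.35-fold higher in FaDU, and MUC16 did not pass the threshold. MUC4 was below the array median on all 6 control arrays and MUC20 on the 3 of JHU-029 and 1 of FaDU. MUC1 averaged 0.03 above that median in JHU-029 shControl, with 1 array below it, and 0.435 above it in FaDU shControl. The folds of MUC20, MUC1 and MUC4 thus come from signal that was dim or near the median, and may be understated. In all, 7 of the 8 genes passed, each higher in FaDU, against 33.4% of all genes tested that were higher in FaDU, 30.4% that were lower and 63.8% that differed in either direction. Without overlap between the control groups, 7 of the 8 were higher in FaDU, against 36.6% of all genes. This comparison gives the level of each gene in cells that received the control shRNA and were collected at the same 72 hours.

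KRT8, the type II partner of KRT18, read 12.32, 12.48 and 12.49 in FaDU shControl and 7.31, 7.43 and 7.59 in JHU-029 shControl. The groups lay far apart, and the difference was 4.99 (SE 0.08, adjusted p = 8.77e-14 by limma, n = 3 arrays per group). KRT19, a type I keratin that lacks the usual tail domain, read 12.06, 12.09 and 12.09 in FaDU shControl and 6.47, 6.55 and 6.85 in JHU-029 shControl. In JHU-029 its signal was thus close to the array median, so the fold may be understated. The difference of 5.46 (SE 0.10, adjusted p = 4.29e-13) ranked 20 and that of KRT8 ranked 31 by size among the 18404 genes.

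KRT18 (probe set 7955637) read 12.10, 12.23 and 12.20 in FaDU shControl and 10.75, 10.72 and 10.76 in JHU-029 shControl. It was well above the array median in both lines, unlike KRT8, which stood 5.89 above that median in FaDU and 0.96 above it in JHU-029. The KRT18 difference was 1.43 (SE 0.05, adjusted p = 5.82e-11). A second KRT18 probe set (8154725) gave 1.96 (SE 0.05, adjusted p = 1.5e-11 when probe sets were tested singly). KRT8 and KRT18 have many processed copies in the human genome, and whether the probes also read these is not given, so both genes' levels carry that uncertainty. KRT7 read 8.31, 8.44 and 8.38 in FaDU shControl and 7.12, 7.02 and 7.44 in JHU-029 shControl, a difference of 1.19 (SE 0.10, adjusted p = 3.83e-07) with no overlap between the groups.

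**Figure D1:**
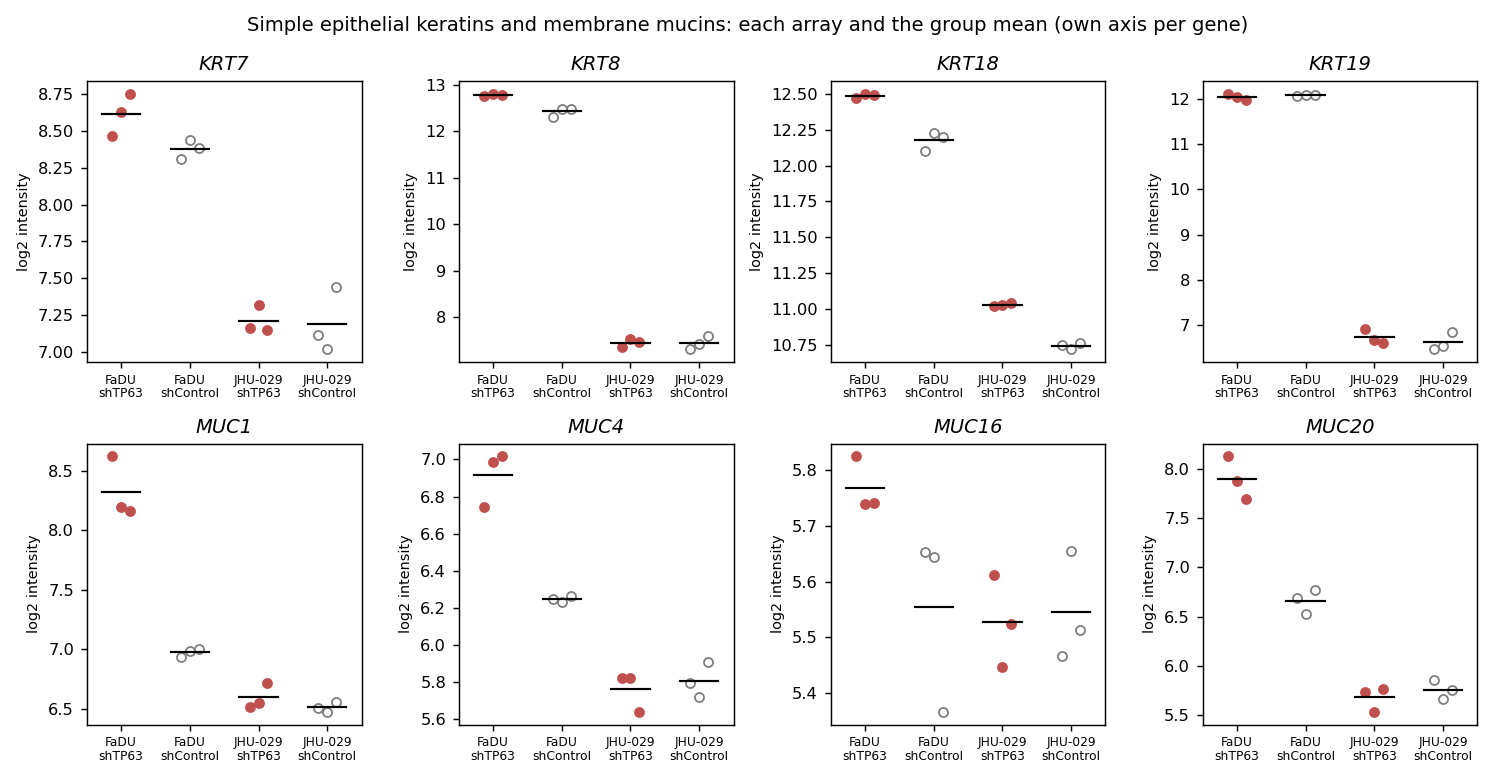
Log2 intensity (y axis, scaled for each gene) of the 8 genes on every array, by group (x axis). Points are arrays, filled for shTP63 and open for shControl, and the bar is the mean of 3 arrays. KRT8 and KRT19 lie near 12 in FaDU and near 7 in JHU-029, and MUC1, MUC4 and MUC20 are highest on the FaDU shTP63 arrays.

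Basal, stress and differentiation keratins ran the other way. Of 8 measured members of that list, 7 were lower in FaDU and 1 was higher, with a median difference of -2.02, against a median of 0.05 over all genes. KRT14, the basal type I keratin, differed by -3.12 (SE 0.07), and KRT5, its type II partner, differed by -0.85 (SE 0.05). KRT4, a mucosal keratin named here because it was the only member in the opposite direction, differed by 0.55. Among other simple or glandular keratins, KRT80 was higher in FaDU by 1.73 (SE 0.08), while KRT20 (-0.17, adjusted p = 0.0754) and KRT23 (0.22, adjusted p = 0.139) did not pass. Of 30 other genes of simple and secretory epithelium, 15 were higher and 4 lower in FaDU, with a median of 0.19. The shares over all genes were 33.4% higher and 30.4% lower. ELF3, an epithelial ETS factor, differed by 4.89 and CLDN7, a tight junction claudin, by 3.74. Among the 4 that were lower in FaDU, EHF differed by -1.15 and CEACAM1 by -1.065.

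**Figure D2:**
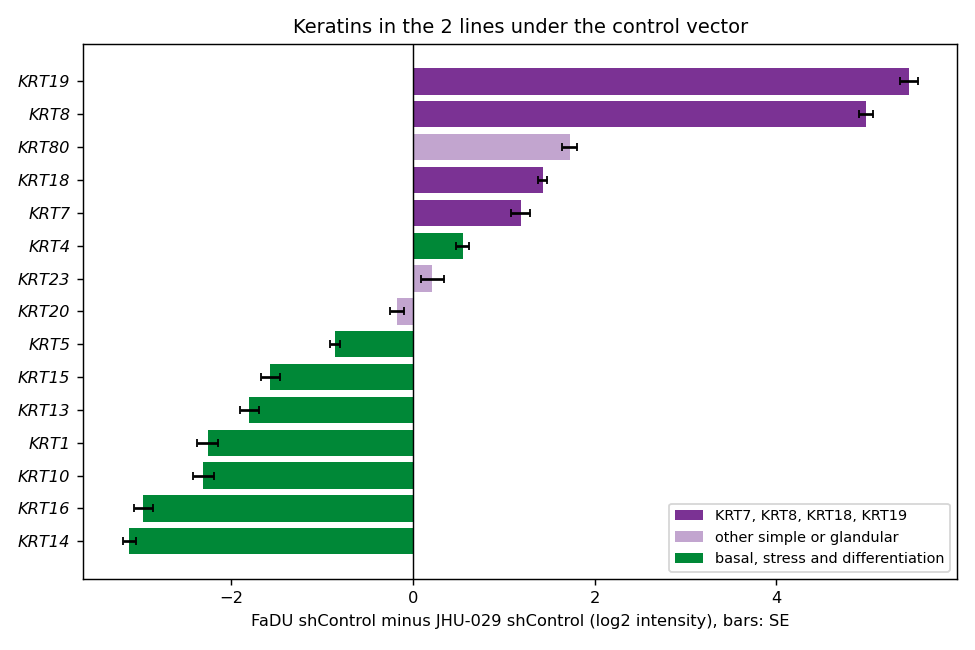
Difference in log2 intensity between FaDU shControl and JHU-029 shControl (x axis) for each measured keratin of the lists described (y axis). Bars are differences and whiskers SE of the limma fit over 3 arrays per group; KRT19 at 5.46 and KRT8 at 4.99 are at the top and KRT14 at -3.12 at the bottom.

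TP63 knockdown in FaDU raised 3 of the 4 membrane mucins and 2 of the 4 keratins. MUC1 rose 2.54-fold, MUC20 2.36-fold and MUC4 1.59-fold, and KRT8 and KRT18 rose 1.28-fold and 1.24-fold. KRT7, KRT19 and MUC16 did not pass, and none of the 8 genes fell. The count of 5 rises among 8 stands against 12.4% of all genes rising in FaDU and 14.2% falling (26.6% in either direction). The median change of the 8 genes was 0.34 and that of all genes 0.02. In bulk samples, a change in RNA per cell and a change in the share of cells that make it cannot be told apart.

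MUC1 is a transmembrane mucin of glandular epithelia cleaved into an extracellular part and a signalling tail. It read 8.62, 8.19 and 8.16 in FaDU shTP63, against 6.94, 6.99 and 7.003 in FaDU shControl. Every knockdown array lay more than 1 log2 unit above every control, with replicate 1 the highest. The FaDU controls averaged 0.435 above the array median, so the fold may be understated. The rise was 1.35 (SE 0.10, adjusted p = 1.78e-06), rank 45 by size among 18404 genes, and between 1.2 and 1.43 with any 1 array left out.

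MUC20, a mucin described in kidney as a binding partner of the receptor kinase MET, read 8.13, 7.87 and 7.70 in FaDU shTP63, against 6.69, 6.53 and 6.77 in FaDU shControl. The arrays did not overlap, and the change was 1.24 (SE 0.11, adjusted p = 4.44e-06). The FaDU controls averaged 0.12 above the array median, with 1 array below it, so the fold may be understated. MUC20 has a near-identical copy in the genome, and whether its probes tell them apart is not given. MUC4, a mucin with EGF-like domains that binds ERBB2, read 6.75, 6.99 and 7.02 in FaDU shTP63, against 6.25, 6.23 and 6.27 in FaDU shControl. All 3 controls lay below the array median and all 3 knockdown arrays above it, so the rise of 0.67 (SE 0.08, adjusted p = 5.93e-05) starts from dim signal and may understate the fold.

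MUC16, the mucin that carries the ovarian tumour marker epitope and binds mesothelin, stayed dim on all arrays. It read 5.83, 5.74 and 5.74 in FaDU shTP63, against 5.65, 5.65 and 5.37 in FaDU shControl. The groups did not overlap, yet the change of 0.21 (95% interval 0.033 to 0.395) missed the threshold (adjusted p = 0.0794). Its size turned on the lowest control, replicate 3. With the 2 other FaDU controls left out, whose titles carry an extra word that the remaining control lacks, the change was 0.40 (SE 0.09, adjusted p = 0.0143) against 1 control array, this lowest one, which is assumed to vary like the other groups, and without replicate 3 it was 0.12 (adjusted p = 0.285).

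The 250 bases before a listed start of MUC1, MUC4, MUC16 and KRT8 are shown. They allow mucins that rose to be set beside the one that did not pass and beside a keratin that rose. They come from RefSeq (GRCh38.p14), are written 5′ to 3′ on the gene's strand (minus for all), and stop at the start site. Capitals mark matches, on either strand, to the TATA box (TATAAA), an E-box written CACCTG, the GC box written GGGCGG, a STAT-type motif written TTCNNNGAA and the p53-family half-site, which is given by name alone. MUC1 and MUC16 had 2 listed starts each, of which the most upstream was taken, and MUC4 and KRT8 had 1. Which start these cell lines use was not tested, so a window may not be the main promoter. Windows of KRT7, KRT18, KRT19 and MUC20 are not shown.
MUC1, chr1:155192916-155193165: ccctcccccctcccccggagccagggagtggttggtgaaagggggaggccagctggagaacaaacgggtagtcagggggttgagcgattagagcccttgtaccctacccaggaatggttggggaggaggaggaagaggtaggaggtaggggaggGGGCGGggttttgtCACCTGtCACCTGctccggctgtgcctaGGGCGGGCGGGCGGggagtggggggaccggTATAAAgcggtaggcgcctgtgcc
MUC4, chr3:195811930-195812179: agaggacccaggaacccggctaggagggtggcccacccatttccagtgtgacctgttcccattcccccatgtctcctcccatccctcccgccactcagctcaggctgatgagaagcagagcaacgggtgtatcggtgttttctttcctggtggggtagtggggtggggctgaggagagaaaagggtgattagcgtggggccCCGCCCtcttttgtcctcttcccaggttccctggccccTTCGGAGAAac
MUC16, chr19:9065752-9066001: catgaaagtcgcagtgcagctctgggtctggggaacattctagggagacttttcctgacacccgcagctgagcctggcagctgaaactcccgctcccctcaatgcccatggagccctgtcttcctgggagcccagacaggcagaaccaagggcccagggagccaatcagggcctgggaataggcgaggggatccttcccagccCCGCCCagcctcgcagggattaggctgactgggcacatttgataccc
KRT8, chr12:52926470-52926719: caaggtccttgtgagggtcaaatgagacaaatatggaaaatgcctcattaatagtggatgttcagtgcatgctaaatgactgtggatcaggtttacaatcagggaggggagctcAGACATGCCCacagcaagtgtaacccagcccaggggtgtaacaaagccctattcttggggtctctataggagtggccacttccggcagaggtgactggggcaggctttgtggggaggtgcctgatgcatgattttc

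MUC1 held a TATAAA 24 to 19 bases before the start, 2 CACCTG motifs and 4 GGGCGG motifs, of which 3 overlap each other. MUC4 held 1 GGGCGG and 1 TTCNNNGAA, that motif lying 11 to 3 bases before the start, and MUC16 held 1 GGGCGG. KRT8 held 1 p53-family half-site, 136 to 127 bases before the start. Of 34943 windows of this length, 10.8% held TATAAA, 17.5% CACCTG, 42.5% GGGCGG, 6.56% TTCNNNGAA and 5.58% the p53-family half-site. No motif was shared by the 3 windows of genes that rose, and a match describes letters in the window and not a bound site.

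**Figure D3:**
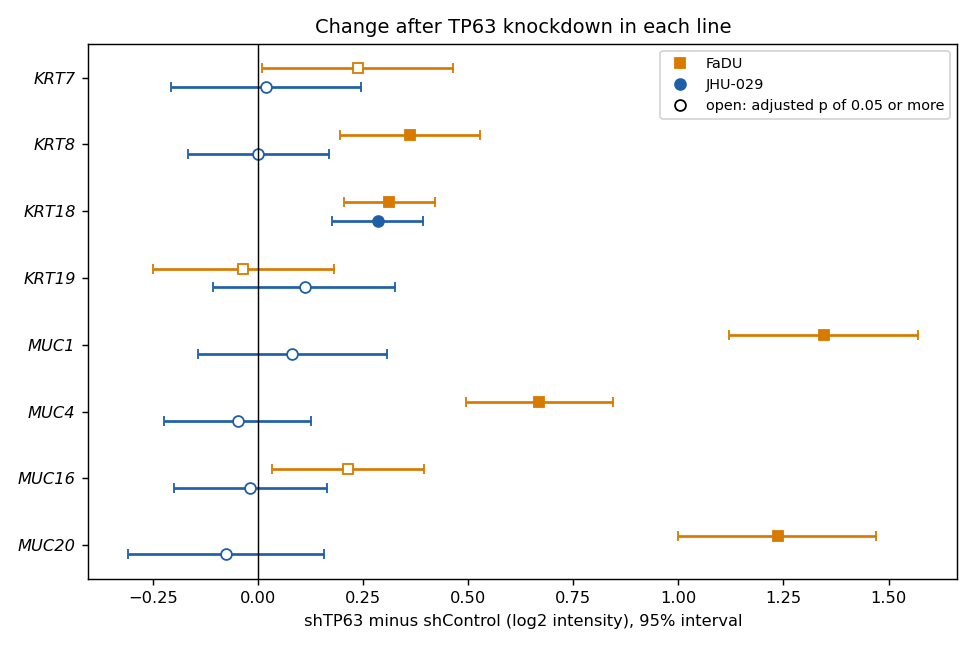
Change in log2 intensity, shTP63 minus shControl (x axis), of the 8 genes (y axis) in FaDU (squares) and JHU-029 (circles). Whiskers are 95% intervals of the limma fit over 3 arrays per group and filled symbols have an adjusted p under 0.05; the FaDU values of MUC1 and MUC20 are 1.35 and 1.24, against 0.08 and -0.08 in JHU-029.

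Among the keratins in FaDU, KRT8 read 12.77, 12.81 and 12.78 with shTP63, against 12.32, 12.48 and 12.49 with shControl. The groups did not overlap, and the rise was 0.36 (SE 0.08, adjusted p = 0.00351). With the 2 FaDU controls that carry the extra title word left out it was 0.30 (adjusted p = 0.0767), but that fit has 1 FaDU control array, with the spread taken from the other groups. KRT18 read 12.47, 12.50 and 12.49 with shTP63, against 12.10, 12.23 and 12.20 with shControl. It rose by 0.31 (SE 0.05, adjusted p = 0.000446), and its second probe set by 0.35 (adjusted p = 0.000496 when probe sets were tested singly). Both partners of the pair thus rose by similar amounts, at mean signal 5.63 or more above the array median in each FaDU group.

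KRT7 read 8.46, 8.63 and 8.75 in FaDU shTP63, against 8.31, 8.44 and 8.38 in FaDU shControl. The groups just failed to overlap, and the change of 0.24 (95% interval 0.010 to 0.463) missed the threshold (adjusted p = 0.12). KRT19 read 12.11, 12.05 and 11.98 in FaDU shTP63, against 12.06, 12.09 and 12.09 in FaDU shControl. The groups overlapped, and the change of -0.04 had a 95% interval of -0.251 to 0.181, its sign turning under cyclic loess. Non-overlapping, higher knockdown arrays were seen for 7 of the 8 genes in FaDU, against 18.1% of all genes.

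In JHU-029, KRT18 was the only gene of the 8 that passed, rising 1.22-fold. It read 11.02, 11.03 and 11.04 with shTP63, against 10.75, 10.72 and 10.76 with shControl. The gap was wide next to a spread of at most 0.04 within a group, and the rise was 0.28 (SE 0.05, adjusted p = 0.00832). That call was lost without JHU-029 shControl replicate 2 (0.27, adjusted p = 0.0514), and the second KRT18 probe set gave 0.20 (adjusted p = 0.0866). The count of 1 of 8 stands against 1.8% of all genes rising in JHU-029 and 1.35% falling (3.15% in either direction), and 1 of the 8 genes had non-overlapping, higher knockdown arrays, against 13.3% of all genes.

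The other keratins stayed within their error in JHU-029. KRT8 read 7.36, 7.52 and 7.46 with shTP63, against 7.31, 7.43 and 7.59 with shControl, a change of 0.0011 (95% interval -0.166 to 0.168) whose sign turned under quantile normalisation and cyclic loess. KRT19 read 6.93, 6.69 and 6.60 with shTP63, against 6.47, 6.55 and 6.85 with shControl (0.11, 95% interval -0.106 to 0.327). KRT7 read 7.16, 7.32 and 7.15 with shTP63, against 7.12, 7.02 and 7.44 with shControl (0.02, 95% interval -0.208 to 0.245). In each of these the groups overlapped.

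No membrane mucin passed in JHU-029. MUC1 read 6.51, 6.55 and 6.72 with shTP63, against 6.51, 6.48 and 6.56 with shControl, close to the array median throughout, and its change was 0.08 (95% interval -0.143 to 0.307, adjusted p = 0.828). MUC20 read 5.74, 5.53 and 5.77 with shTP63, against 5.85, 5.66 and 5.76 with shControl (-0.08, 95% interval -0.31 to 0.156). MUC4 read 5.82, 5.82 and 5.64 with shTP63, against 5.80, 5.72 and 5.91 with shControl, and MUC16 read 5.61, 5.45 and 5.52 with shTP63, against 5.47, 5.66 and 5.51 with shControl. All JHU-029 arrays lay below the array median for these 3 mucins.

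The effects of the lines were then set against each other by the interaction term. The FaDU effect exceeded the JHU-029 effect for 4 of the 8 genes, against 4.97% of all genes in that direction, 8.25% in the opposite one and 13.2% in either. The excess was 1.31 for MUC20 (SE 0.15, adjusted p = 0.000175), 1.27 for MUC1 (SE 0.15, adjusted p = 0.000182) and 0.72 for MUC4 (SE 0.11, adjusted p = 0.00156). These 3 passed in all 12 fits that left out 1 array. For KRT8 the excess of 0.36 (SE 0.11, adjusted p = 0.0469) passed in 1 of those 12 fits, the one without JHU-029 shControl replicate 1, and its adjusted p reached 0.112 in the others.

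For KRT18 the lines differed by 0.03 (95% interval -0.123 to 0.18, adjusted p = 0.852), and quantile normalisation turned the sign. KRT7 (0.22, 95% interval -0.102 to 0.539), KRT19 (-0.15, 95% interval -0.452 to 0.16) and MUC16 (0.23, 95% interval -0.024 to 0.488) did not pass either. For MUC16 the excess was 0.42 (adjusted p = 0.0465) with the FaDU controls that carry the extra title word left out, which again rests on 1 FaDU control, its lowest. Ordered by level, 7 of the 8 genes had both FaDU groups above both JHU-029 groups with no overlap between the lines. MUC16 was the exception. The share of all genes with this order was not computed. Between the control groups alone, 36.6% of all genes were higher in FaDU without overlap. For all of these genes but KRT19 the order of group means began with FaDU shTP63 and then FaDU shControl. In MUC16 the FaDU shControl mean was 0.01 above that of JHU-029 shControl, and those groups overlapped. For KRT19 the neighbouring FaDU groups overlapped. The neighbouring JHU-029 groups overlapped for all genes but KRT18.

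Beyond the 4 mucins described, the listed mucin genes that were measured did not pass in either line. Among 6 other membrane mucins, 0 changed in FaDU and 0 in JHU-029, with changes between -0.09 and 0.17 in FaDU and between -0.19 and 0.12 in JHU-029. Among 5 secreted mucins, 0 changed in either line, with changes between -0.20 and 0.21 in FaDU. All group means of MUC3A, MUC13, MUC15, MUC17, MUC7 and MUC19 lay below the lowest array median (6.46), so changes in them could go unseen. MUC22 and MUC5AC were not measured. Enzymes that build O-linked glycans on mucins moved both ways in FaDU: 10 of 22 rose and 5 fell, with a median of 0.15. Over all genes, 12.4% rose and 14.2% fell in FaDU, and 1.8% rose and 1.35% fell in JHU-029. GCNT3, a branching enzyme of mucin-type glycans, rose by 0.70 (SE 0.10), and GALNT7, which adds GalNAc to partly glycosylated peptides, rose by 0.63 (SE 0.07). GALNT18 fell by 0.82 (SE 0.07), and GALNT1, an initiating transferase, fell by 0.60 (SE 0.07). In JHU-029, 1 of the 22 rose, GALNT7 by 0.78 (SE 0.07), and 0 fell.

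Of 12 measured binding partners of membrane mucins, 3 rose and 3 fell in FaDU and 0 changed in JHU-029. The shares of all genes were 12.4% rising and 14.2% falling in FaDU, and 3.15% changing in JHU-029. ERBB3, a receptor that pairs with ERBB2, rose by 0.63 in FaDU (SE 0.05), and LGALS3, a galectin that binds mucin glycans, rose by 0.30 (SE 0.08, adjusted p = 0.0181). LGALS3 missed the threshold when replicate 1 of FaDU shControl or replicate 3 of FaDU shTP63 was removed, with each line fitted alone and with the extra-word controls left out, its adjusted p reaching 0.231. EGFR fell by 0.39 (SE 0.06) and the kinase SRC fell by 0.33 (SE 0.06).

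Genes whose products link or regulate keratin filaments had 2 of 15 rising and 5 falling in FaDU, with a median of -0.06. Over all genes, 12.4% rose and 14.2% fell in FaDU, and 3.15% changed in JHU-029. PPL, the plakin periplakin, rose by 0.61 (SE 0.08), while SFN, a keratin-binding adaptor of epithelial cells, fell by 1.07 (SE 0.06) and PKP1, a desmosomal plakophilin, fell by 0.64 (SE 0.09). PKP2, the plakophilin also found in simple epithelia, rose in JHU-029 by 0.33 (SE 0.05), the only 1 of 15 to change there. Its rise in FaDU of 0.16 (adjusted p = 0.0365) held in 8 of 21 alternative fits, and the adjusted p reached 0.286.

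Other genes of simple and secretory epithelium had 10 of 30 rising and 1 falling in FaDU, with a median of 0.09. In JHU-029, 5 of 30 rose and 0 fell, with a median of 0.05. The shares of all genes were 12.4% rising and 14.2% falling in FaDU, and 1.8% rising and 1.35% falling in JHU-029. LCN2, which binds bacterial siderophores, rose by 1.602 in FaDU (SE 0.07), and SLPI, a secreted protease inhibitor, rose by 1.31 (SE 0.10). SCGB1A1, a club cell secretoglobin, fell by 0.28 (SE 0.10, adjusted p = 0.0479), a call kept in 5 of 20 alternative fits. In JHU-029 the tetraspanin TSPAN1 rose by 0.68 (SE 0.06) and the tight junction protein CLDN7 by 0.62 (SE 0.08). In FaDU their changes were lower by 0.80 and 0.82 (differences of -0.80, adjusted p = 8.19e-05, and -0.82, adjusted p = 0.000643), from FaDU shControl levels of 10.47 and 11.53 against 7.001 and 7.79 in JHU-029 shControl.

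Squamous markers were lower in FaDU after knockdown. Of 11 measured, 10 fell and 0 rose, with a median of -0.82, led by KRT5 (-1.41, SE 0.05) and KRT15 (-1.30, SE 0.11). Over all genes, 14.2% fell and 12.4% rose in FaDU, and 1.35% fell in JHU-029. In JHU-029, 1 of 11 fell, S100A2 by 0.47 (SE 0.06). Of the 8 basal, stress and differentiation keratins, 4 fell and 0 rose in FaDU (KRT5, KRT15, KRT13 and KRT14, the last pair named because the count is small), and 0 changed in JHU-029. KRT80, counted among the other simple or glandular keratins, passed in both lines, with a rise of 0.35 in FaDU (SE 0.08, adjusted p = 0.00433) and of 0.72 in JHU-029 (SE 0.08, adjusted p = 0.000412). Its FaDU call was lost with the extra-word controls left out (adjusted p = 0.125). KRT20 and KRT23, the other measured members of that list, did not pass in either line.

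Markers of other cell types were examined beside these results. Their counts stand against 12.4% of all genes rising in FaDU and 3.15% changing in JHU-029. Linear sums weigh the brightest genes most, which in FaDU were CDH5 and ENG (endothelial), CD68 (immune) and FBLN1 (fibroblast). The summed linear intensity of 10 endothelial markers was 1995 to 2075 in FaDU shTP63 and 1455 to 1530 in FaDU shControl, and 2 of the 10 rose, CDH5 by 1.00 (SE 0.07) and ESAM by 0.30 (SE 0.09), the ESAM call failing in 4 of 20 alternative fits, among them those that removed FaDU shControl replicate 2 and FaDU shTP63 replicate 3. The summed intensity of 13 immune markers was 2642 to 2942 in FaDU shTP63 and 2560 to 2582 in FaDU shControl, with 2 rising, LYZ by 0.76 (SE 0.15) and CD14 by 0.51 (SE 0.09). That of 12 fibroblast markers was 1555 to 1617 in FaDU shTP63 and 1371 to 1442 in FaDU shControl, with 1 rising, FBLN1 by 0.24 (SE 0.06), a call lost when 1 FaDU control, the one without the extra title word, was kept (adjusted p = 0.0882). PTPRC, PECAM1 and DCN, 1 marker picked from each list, did not pass in FaDU (adjusted p = 0.112, 0.861 and 0.119), while the members just named rose. An RMA value is never 0. In JHU-029, 0 markers of these 3 lists passed. In JHU-029 the sums were 490 to 582.4 with shTP63 and 517.2 to 562.2 with shControl for the endothelial list, 2310 to 2437 with shTP63 and 2418 to 2531 with shControl for the immune list, and 1330 to 1376 with shTP63 and 1272 to 1319 with shControl for the fibroblast list. The part of such cells in the rises of the mucins was not tested.

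**Figure D4:**
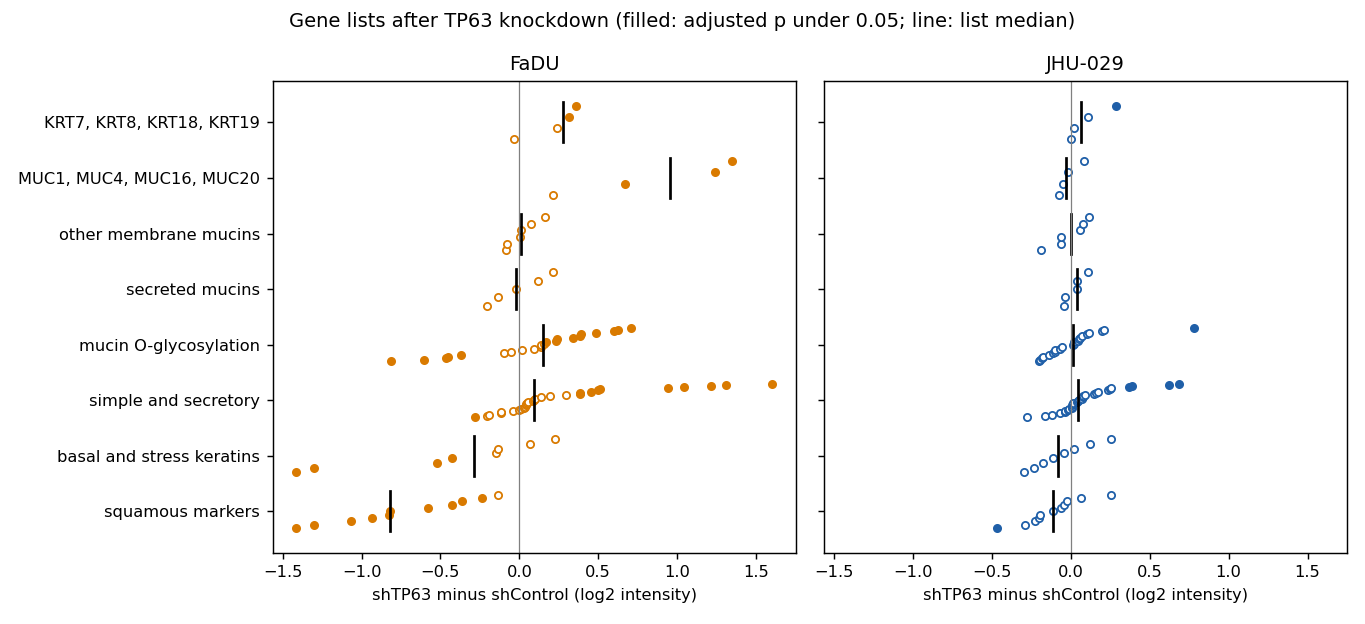
Change in log2 intensity, shTP63 minus shControl (x axis), of each measured gene of 8 lists (y axis) in FaDU (left) and JHU-029 (right). Points are genes, filled where the adjusted p is under 0.05, and vertical lines are list medians; in FaDU the median is 0.95 for the 4 membrane mucins and -0.82 for the squamous markers.

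For each gene, the 2 genes with the most similar pattern were found by Pearson's r over the 12 arrays among the 18403 other genes. The arrays fall into 2 lines and 4 groups, so r reflects the differences between lines and between shRNAs that a pair of genes shares, and it is given as a description. KRT18 was closest to FOXA1 (r = 0.998), a pioneer transcription factor of glandular epithelium, which also rose in both lines (0.51 in FaDU, adjusted p = 0.000205, and 0.37 in JHU-029, adjusted p = 0.0167), and to KAT6B (r = 0.997). MUC1 was closest to ITGB2 (r = 0.988), a leukocyte integrin chain, which rose by 1.18 in FaDU (adjusted p = 1.89e-08), and to TOR1AIP1 (r = 0.986). MUC4 was closest to CLSTN3 (r = 0.987) and APOBEC3H (r = 0.984), and MUC20 to ADIPOR1 (r = 0.992) and TSC1 (r = 0.991), all 4 of which rose in FaDU. KRT8 was closest to PIM3 and SRPX2 (r = 0.999 for both), KRT19 to MGST1 and THRB (r = 0.999 for both), and KRT7 to HDAC4 and DYNC1I1 (r = 0.994 for both), none of which passed in either line. For MUC16 the highest r were lower, 0.912 with PHETA1 and 0.905 with FCRL2.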

How the data were processed

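The authors deposited linear intensity values for 32321 probe sets on 12 arrays, made with RMA in R 2.15.1, per the submitters' processing notes (implementation not stated there), and log2 was taken of them. The array's annotation lists 19158 probe sets with 1 gene symbol, 1388 with several and 11775 with none; 19128 matched the reference table by Entrez ID. The first kind gave 18404 genes, the probe set of highest mean standing for a gene. Groups and replicate numbers came from the sample descriptions. limma 3.58.1 (R 4.3.3) estimated 4 group means from the 12 arrays together (8 residual degrees of freedom, prior 4.17), with two-sided moderated tests, Benjamini-Hochberg adjustment over all genes within a contrast, a threshold of 0.05, and no filter. "Rose" and "fell" mean an adjusted p under that threshold. SE is that of the fit. The fit was tested on simulated data. With 3 against 3 arrays, an exact permutation test cannot go below 0.1.

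The 8 genes and the gene lists were chosen with earlier results of these data known. Named genes are the 8, up to 2 list members per direction and line with the largest change, the 2 most similar genes for each of the 8 and their measured neighbours; others are marked. Alternatives were other scalings, a variance trend, single probe sets, a filter on dim genes, single lines, replicate blocks and left-out arrays. The level of TP63 is not analysed here.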

Additional observations from a re-analysis of the deposited data

Results flagged for a closer look

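The change after TP63 knockdown differed between the lines, by the interaction term of the limma fit, for 4 of the 8 genes. The share of all genes was 13.2%, with 4.97% in the direction of these 4 and 8.25% in the opposite one. The FaDU effect minus the JHU-029 effect was 1.31 for MUC20 (adjusted p = 0.000175), 1.27 for MUC1 (adjusted p = 0.000182), 0.72 for MUC4 (adjusted p = 0.00156) and 0.36 for KRT8 (adjusted p = 0.0469). The FaDU shTP63 arrays of MUC1, MUC4 and MUC20 lay above all other arrays. The KRT8 difference was just past the threshold and, unlike those of the 3 mucins, missed it in most fits that left out 1 array.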

How the results depend on the processing

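With any 1 array left out, 5 of the 8 genes rose in FaDU and 7 were higher in FaDU under the control vector in all 12 fits, and between 0 and 1 rose in JHU-029. With all arrays kept, the matching shares of all genes were 12.4%, 33.4% and 1.8%. Over all genes, the calls in JHU-029 ranged from 229 to 626 in the 12 fits that left out 1 array, against 580 with all arrays. They came to 1015 with a variance trend and also 1015 with dim genes left out. Deviations of same-numbered arrays from their group means correlated at -0.339 to 0.013, and whether the replicate numbers pair the arrays is not given. A fixed replicate block within each line left 172 calls in JHU-029 and 0 of the 8 genes (KRT18 adjusted p = 0.0772), and 1395 calls against 2433 for the difference between the lines, where KRT8 was lost (adjusted p = 0.0667). A random replicate block also ended that KRT8 call (adjusted p = 0.0732), and no other call among the 8 genes was lost under either block. The KRT8 difference was 0.298 (adjusted p = 0.181) when a single FaDU control, the one without the extra title word, was kept. PKP2 in JHU-029 missed the threshold under the fixed replicate block (adjusted p = 0.0527). Values near 0 changed sign without a call. Quantile normalisation gave -0.0049 for KRT8 in JHU-029, -0.0087 for the KRT18 difference between the lines and -0.0825 for MUC16 between the controls. Cyclic loess gave -0.017 for KRT8 in JHU-029, 0.00073 for KRT19 in FaDU and -0.0983 for MUC16 between the controls, which was -0.179 with the extra-word FaDU controls left out. Leaving out 1 array gave -0.0677 to 0.142 for KRT7, -0.0644 to 0.0754 for KRT8, -0.0908 to 0.0129 for MUC4 and -0.0606 to 0.0374 for MUC16 in JHU-029. It gave -0.00856 to 0.0548 for the KRT18 difference between the lines and -0.0393 to 0.105 for MUC16 between the controls. The cause of these shifts was not tested. MUC4 and MUC16 drop out when dim genes are left out. Signal near the array median limits what can be said of the mucins in JHU-029.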

Other observations

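KRT8 and KRT18 lie beside each other at the end of the type II keratin cluster on chromosome 12, and KRT7 towards its other side, with 17 measured keratin genes between KRT7 and KRT8. In FaDU, 0 of these 17 rose and 1 fell after knockdown (KRT5, by 1.41), and in JHU-029, 0 rose and 1 fell (KRT75, a hair follicle keratin, by 0.38, adjusted p = 0.0103). Of the 6 measured genes beside KRT8 and KRT18, namely KRT4, KRT79, KRT78, EIF4B, TNS2 and SPRYD3, 0 changed in either line. The knockdown shares of all genes were 12.4% rising and 14.2% falling in FaDU, and 1.8% rising and 1.35% falling in JHU-029. Under the control vector, 4 of the 17 keratins were higher and 7 lower in FaDU than in JHU-029, among them KRT75 (-2.10) and KRT1 (-2.25). Over all genes, 33.4% were higher and 30.4% lower.

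MUC20 and MUC4 are neighbours on chromosome 3. Of the 6 measured genes nearest to them, PPP1R2 rose by 0.29 in FaDU (adjusted p = 0.0016) and TFRC, the transferrin receptor, fell by 0.21 (adjusted p = 0.0091). APOD, an apolipoprotein, differed by 0.48 and missed the threshold (adjusted p = 0.0501). None of the 6 changed in JHU-029. Over all genes, 26.6% changed in FaDU (12.4% rising and 14.2% falling) and 3.15% in JHU-029. Under the control vector, 4 of the 6 were higher and 1 lower in FaDU than in JHU-029, with a median of 0.24. The shares of all genes were 33.4% higher and 30.4% lower.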
